A study of Mus musculus with 24 samples.

Results

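The genes of the hypoxia-inducible factors (HIFs), their oxygen-sensing hydroxylases and the growth factor gene Vegfa were described across sleep and wake in RNA of cortical astrocytes and of the remaining cortex. The 9 genes were Hif3a, Hif1a, Epas1, Arnt, Arnt2, Egln1, Egln2, Egln3 and Vegfa, out of 18193 genes on the array. They had 27 probe sets annotated to exactly that symbol, and each gene was read from 1 probe set, selected on the highest mean log2 value over all 24 arrays. The genes themselves were chosen as a pathway after Hif3a had been seen to be high after sleep deprivation. The choice of probe set used the level, and 18 of the 24 arrays were bound arrays, so it favours probe sets that are bright in that fraction. Values or ranges of the other probe sets are therefore given as well for the main comparisons.

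Adult heterozygous aldh1l1 - eGFP-L10a mice, in which a ribosomal protein tagged with green fluorescent protein is driven by the promoter of Aldh1l1, an astrocyte gene, were used in every group. Cerebral cortex was dissected and tagged ribosomes were precipitated, giving a bound fraction that is meant to carry astrocyte RNA and an unbound supernatant with the RNA of neurons and other cells, including whatever astrocyte RNA was left behind. The sleep group was killed in the light phase (3 to 5 pm) after a bout of over 45 min asleep and at least 75% sleep in the preceding 6 to 7 h. The waking group was killed in the dark phase (3 to 5 am) after a bout of over 1 h awake and at least 70% wake in the preceding 6 to 7 h. The sleep deprivation group had been awake for most of the dark phase and was then kept awake for 4 h of the light phase with unfamiliar objects. Each state had 6 bound arrays, 1 animal each, and 2 unbound arrays, each a pool of 3 animals (animals 1 to 3 and animals 4 to 6). Waking thus also differed from sleep in time of day, and sleep deprivation also differed from waking in it. A clock time of killing was not available here for the sleep deprivation group. No untagged animals were analysed here.

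HIFs are dimers of an oxygen-regulated alpha subunit (encoded by Hif1a, Epas1 or Hif3a) and a stable beta subunit (Arnt or Arnt2). In the presence of oxygen the prolyl hydroxylases encoded by Egln1, Egln2 and Egln3 mark the alpha subunits for degradation through the von Hippel-Lindau protein, so that much of the control lies in the protein and is not seen in RNA. Vegfa, Egln3 and some other genes are classical HIF targets, and short Hif3a products can oppose the other alpha subunits. In the brain, astrocytes are a source of Vegfa and of other signals to blood vessels.

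A HIF dimer binds DNA at a short core, written ACGTG or GCGTG. The 250 bases before the RefSeq start (GRCm38.p6) were available for 8 of the 9 genes in 10 windows, and a core on either strand was found in 8 windows, beside 38.6% of 32851 promoter windows of the same length (16.6% for ACGTG and 28.2% for GCGTG alone). The share of G and C in the 10 windows ran from 48.0% to 86.0%, and the promoters beside them were not matched for it. Egln2 and Vegfa also count more than once, so that no excess of cores can be read from this. The longer E-box CACGTG, which contains ACGTG on each strand, was found in Hif1a only, beside 6.0% of all windows. Windows are shown for Hif3a, whose level prompted the choice of genes, for Egln2, called after sleep deprivation, and for Vegfa, the classical target, with cores on either strand in capitals.
Hif3a, chr7:17062428-17062677, minus strand: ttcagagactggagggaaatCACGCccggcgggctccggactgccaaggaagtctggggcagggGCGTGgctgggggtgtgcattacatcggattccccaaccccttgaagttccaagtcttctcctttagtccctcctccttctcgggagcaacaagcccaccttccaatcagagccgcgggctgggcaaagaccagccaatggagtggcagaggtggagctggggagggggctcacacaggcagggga
Egln2, chr7:27166803-27167052, minus strand: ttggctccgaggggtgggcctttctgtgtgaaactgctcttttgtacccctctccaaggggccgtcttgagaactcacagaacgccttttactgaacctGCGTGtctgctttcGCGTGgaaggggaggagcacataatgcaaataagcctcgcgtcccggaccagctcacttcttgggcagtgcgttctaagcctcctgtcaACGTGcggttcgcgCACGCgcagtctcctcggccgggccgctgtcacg
Vegfa, chr17:46032378-46032627, minus strand: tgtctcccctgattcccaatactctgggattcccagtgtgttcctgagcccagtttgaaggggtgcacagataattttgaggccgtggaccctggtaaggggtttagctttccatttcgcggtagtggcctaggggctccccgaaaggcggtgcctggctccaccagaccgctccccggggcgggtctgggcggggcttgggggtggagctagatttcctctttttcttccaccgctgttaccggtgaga
The Hif3a window has 2 GCGTG cores, beginning at -230 and -186 from the start, and the Egln2 window has 4 cores, at -151, -137, -48 and -34. This Vegfa window has none, whereas a second Vegfa window at an internal start has 2. These are matches of letters, and no binding was measured.

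The arrays gave log2 values after robust multi-array averaging (RMA). All differences and folds below are taken relative to the median of all genes in the same comparison (of all probe sets where probe sets were tested singly), which was 0.09 between bound waking and sleep, 0.11 between bound sleep deprivation and sleep, and 0.30 and 0.18 for the same pairs in the unbound fraction. Errors are standard errors (SE) of the limma fit, and adjusted p and calls (adjusted p under 0.05) rest on the differences as fitted over all genes. Exactly tied values occurred in each of 48 pairs of arrays within a group and in none of 228 pairs between groups. RMA may therefore have been run group by group, and group and run then cannot be told apart in any comparison of states or fractions. Animals 1 to 3 and 4 to 6 also stood apart within the bound fraction, with 43.8% of genes called between them, so that results are also given within these sets. Aldh1l1 was at 10.90 ± 0.25 (SD, n = 18) in bound and 7.02 ± 0.17 (SD, n = 6) in unbound arrays. All 10 astrocyte markers were called higher and 9 of 10 neuron markers lower in the bound fraction. Also higher there were 7 of 8 meningeal and fibroblast markers (list median 1.26) and 3 of 8 ependymal and choroid plexus markers (1.00), beside 42.2% of all genes. Of 9 endothelial markers 3 were higher and 2 lower, and of 7 oligodendrocyte markers 1 was higher and 6 lower. The part of these other cells in the differences below was not tested. In RNA of whole fractions, fewer cells of a type and less RNA per cell cannot be told apart.

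**Figure D1:**
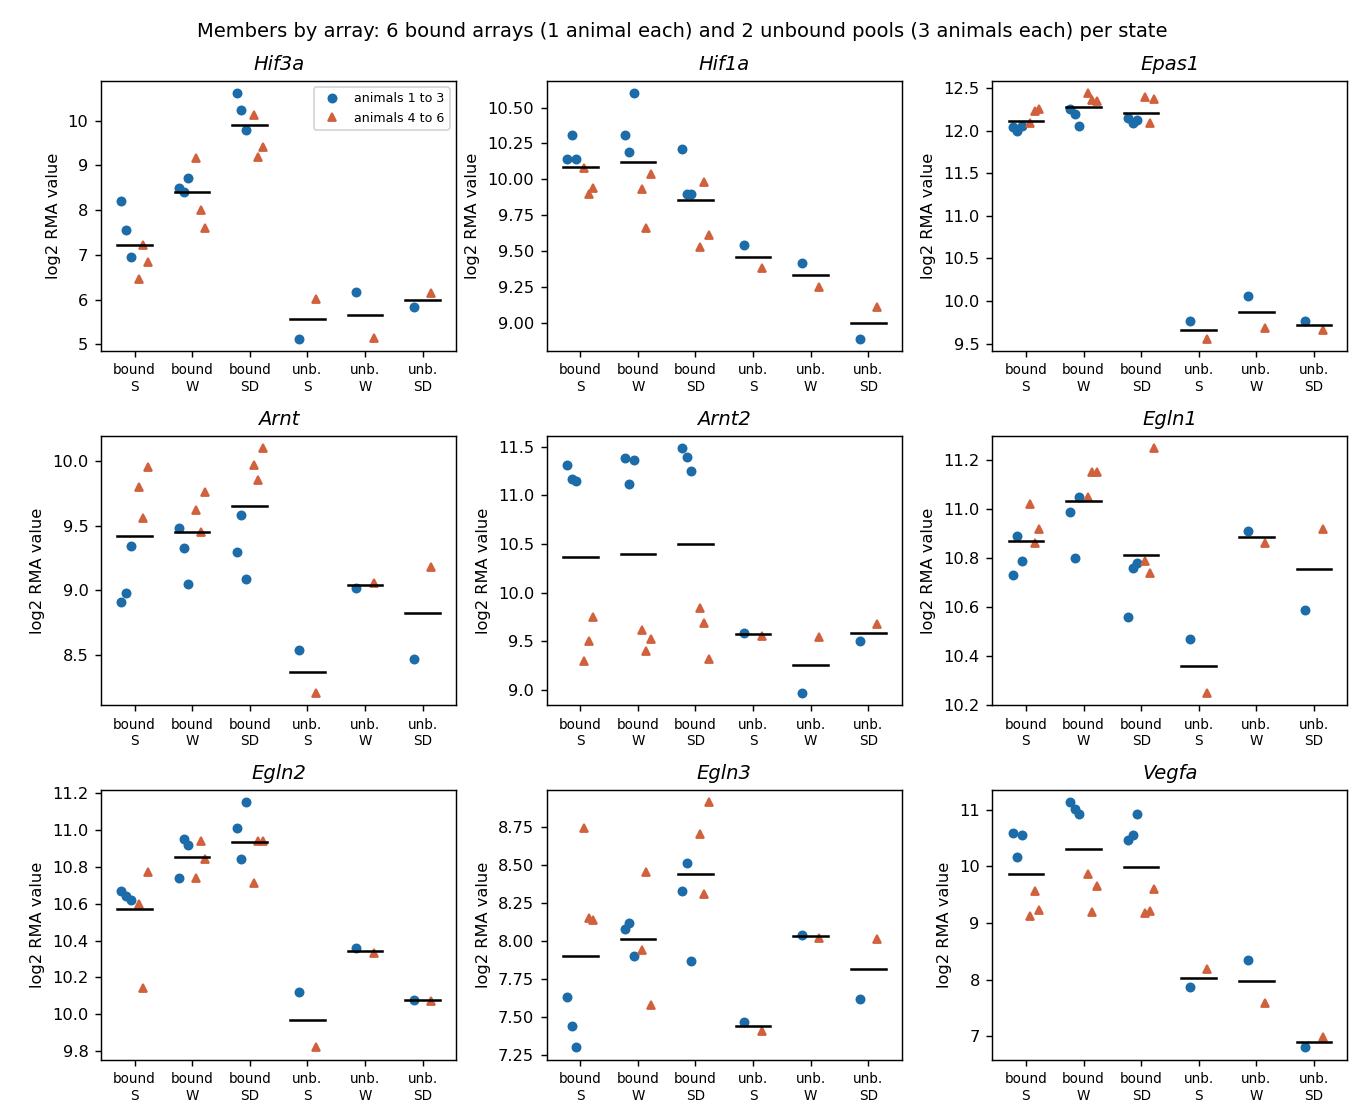
Log2 RMA value of each of the 9 genes (1 panel each) in the 24 arrays, by fraction (unb., unbound) and state (S, sleep; W, waking; SD, sleep deprivation); points are arrays, shaped by animal set, and lines are group means. Hif3a rises over the 3 bound states while Arnt2 and Vegfa split by animal set within each bound state.

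Hif3a, which encodes an alpha subunit with several isoforms, had the widest range over states. In the bound fraction its values ran from 6.47 over a median of 7.10 to 8.21 in sleep, from 7.61 over 8.45 to 9.16 in waking, and from 9.18 over 9.97 to 10.61 after sleep deprivation. The sleep-deprived arrays lay above every sleeping and every waking array, while sleep and waking overlapped. The group means were 7.21 ± 0.61, 8.40 ± 0.54 and 9.89 ± 0.54 (SD, n = 6 each).

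Against sleep, Hif3a was 2.14-fold higher in waking (log2 1.10 ± 0.31, adjusted p = 0.016, above the sleep mean in 6 of 6 arrays). After sleep deprivation it was 5.94-fold higher than in sleep (2.57 ± 0.31), and 2.78-fold higher than in waking (1.47 ± 0.31). The gene was already known from these arrays to be high after sleep deprivation. Both values after sleep deprivation are therefore descriptions with no test, and the comparison of waking with sleep shares the sleep arrays with them. In bound waking against sleep Hif3a was the only 1 of the 9 genes past the threshold, beside 11.2% of all genes. In bound sleep deprivation against waking none of the other 8 genes passed, beside 6.84% of all genes.

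The waking call was lost in each animal set alone, at 0.87 (adjusted p = 0.108) in animals 1 to 3 and 1.31 (adjusted p = 0.0943) in animals 4 to 6, when dim genes were left out (adjusted p = 0.0669) and with the mean of the 6 probe sets (0.78, adjusted p = 0.145), though in neither set did sleep and waking overlap. After sleep deprivation the sets gave nearly the same size, 2.54 and 2.59, and in neither set did sleep and sleep deprivation overlap. Markers of other cell types moved with waking as well. Of 9 endothelial markers 3 were called higher than in sleep (Cldn5 by 0.67, Slco1c1 by 0.66 and Esam by 1.03), while Slco1a4 was at -0.54 and was not called. Their mean level was 5.69 to 5.97 in waking, 5.32 to 5.55 in sleep and 5.25 to 5.78 after sleep deprivation. Of 7 oligodendrocyte markers 2 were higher (Ugt8a by 1.15 and Ermn by 1.06), with a mean level over the list of 8.15 to 8.85 in waking, 7.62 to 8.35 in sleep and 7.92 to 8.6 after sleep deprivation. Of 7 microglia markers 2 were higher (Tmem119 by 0.98 and Itgam by 0.41), with a mean level of 5.84 to 6.31, 5.55 to 5.92 and 5.16 to 6.14 in the same order. Of 8 pericyte and smooth muscle markers 2 were higher and 1 lower. Red blood cell markers (2 of 2 higher after sleep deprivation than in sleep, beside 14.3% of all genes called) had a mean level of 4.17 to 4.63 against 3.42 to 3.83. Both levels were dim beside the bound array medians of 5.653 to 5.879, so that the rise is uncertain. Other lists went the other way. Ependymal and choroid plexus markers had a list median of -0.84 in waking and -1.10 after sleep deprivation, with 0 of 8 called in either. Their mean level was 5.53 to 8.68 in waking, 6.23 to 8.87 in sleep and 5.5 to 8.58 after sleep deprivation. Meningeal and fibroblast markers had medians of -0.43 and -0.32, again with 0 of 8 called. The part of all these cells in the result was not tested.

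The 6 Hif3a probe sets moved the same way between the bound states on average. After sleep deprivation they were 0.86 to 2.56 higher than in sleep, which is again a description with no test. In waking they were 0.26 to 1.09 higher, and 1 passed. At 1459052_at the level after sleep deprivation was 3.38 higher than in sleep in animals 1 to 3 and 0.82 higher in animals 4 to 6, a difference between the sets that was not tested. The probe set 1446708_at was higher in waking by 0.65 in animals 1 to 3 and lower by 0.12 in animals 4 to 6 (-0.12).

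**Figure D2:**
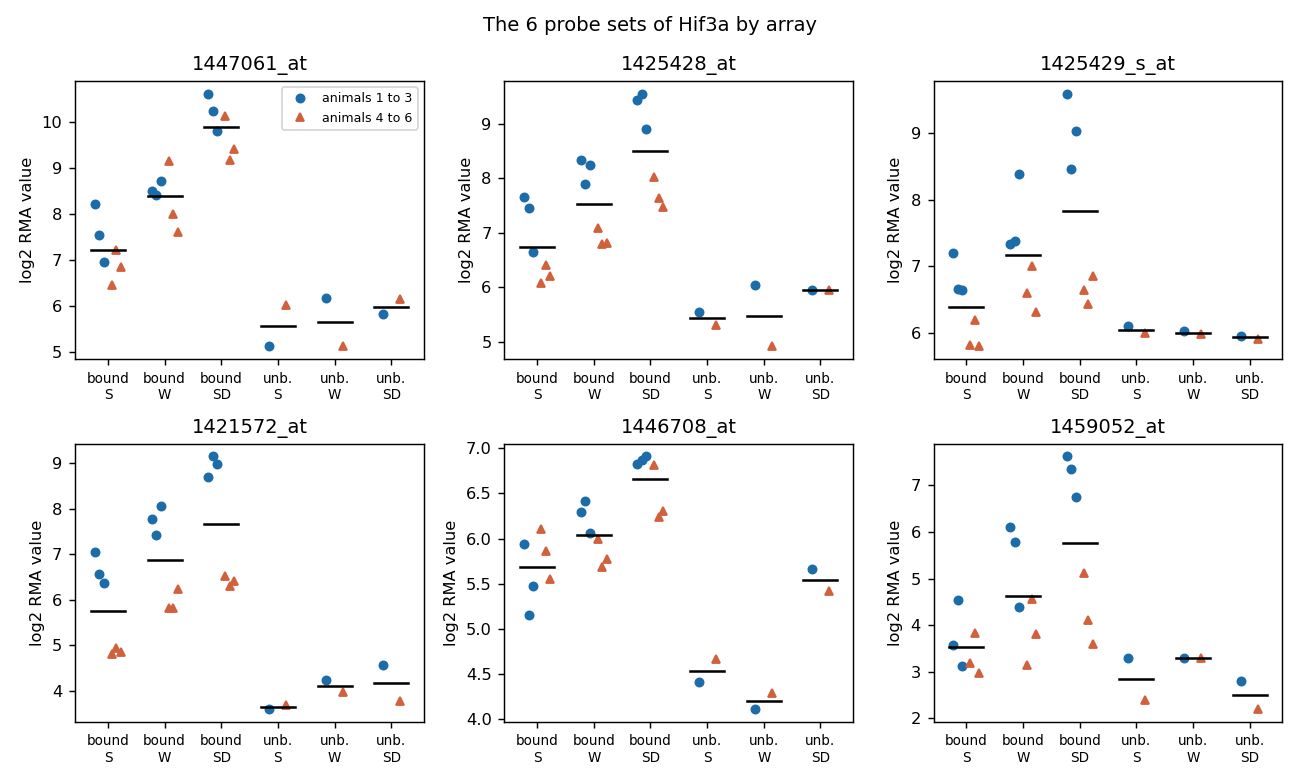
Log2 RMA value of the 6 Hif3a probe sets (1 panel each) by fraction (unb., unbound) and state (S, sleep; W, waking; SD, sleep deprivation); points are arrays, shaped by animal set, and lines are group means. The bound means rise from sleep over waking to sleep deprivation in every panel, and in 4 panels animals 4 to 6 differ from animals 1 to 3 by -2.07 to -1.32.

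In the unbound pools Hif3a was at 5.13 and 6.02 in sleep, 5.14 and 6.17 in waking, and 5.84 and 6.15 after sleep deprivation. The states overlapped. Over all probe sets the medians of these arrays were 5.505 to 5.841, so that Hif3a was dim there. Whether its low signal hid a difference of states in the pools was not tested. Against sleep the differences were -0.22 ± 0.42 in waking (adjusted p = 0.901) and 0.24 ± 0.42 after sleep deprivation (adjusted p = 0.563). The sleep deprivation difference was 2.33 ± 0.61 larger in the bound than in the unbound fraction, and the waking difference 1.32 ± 0.61 larger (adjusted p = 0.36). At the probe set 1446708_at both unbound pools after sleep deprivation, 5.42 and 5.66, lay above those of sleep, 4.41 and 4.66 (0.84 ± 0.19, adjusted p = 0.0517), beside 0.86 ± 0.18 in the bound fraction.

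Hif1a, the broadly expressed alpha subunit, was not called in any comparison of states. Its bound values ran from 9.90 to 10.31 in sleep, 9.66 to 10.60 in waking and 9.53 to 10.21 after sleep deprivation, and the groups overlapped. The difference from sleep was -0.05 ± 0.15 in waking and -0.34 ± 0.15 after sleep deprivation (adjusted p = 0.365). In waking the 4 probe sets of Hif1a ran from -0.49 to 0.06, and none was called. At 1427418_a_at waking lay below sleep without overlap in both animal sets (-0.37 in animals 1 to 3, -0.54 in animals 4 to 6). At 1416035_at the waking differences were -0.43 and -0.55, with overlap in animals 1 to 3. All 4 of its probe sets were lower than the median probe set after sleep deprivation, from -0.73 to -0.33. Of these 1416035_at passed the threshold (-0.73 ± 0.19, adjusted p = 0.0382), with -0.87 in animals 1 to 3 and -0.56 in animals 4 to 6. In the unbound pools Hif1a was at 8.89 and 9.11 after sleep deprivation and at 9.38 and 9.54 in sleep, which did not pass the test (-0.64 ± 0.17, adjusted p = 0.165). Its 4 probe sets ran from -1.21 to -0.10 in that comparison, with none called.

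Epas1, which encodes the alpha subunit known from endothelium and astrocytes, was the steadiest of the alpha subunits at the brightest probe sets. Its bound values ran from 12 to 12.25 in sleep, from 12.06 to 12.44 in waking and from 12.09 to 12.40 after sleep deprivation. The differences from sleep were 0.07 ± 0.09 (adjusted p = 0.319) and -0.02 ± 0.09 (adjusted p = 0.607). Its second probe set, 1449888_at, gave 0.30 ± 0.37 and 0.12 ± 0.37, with neither past the threshold. This probe set split by animal set. Within animals 1 to 3 and animals 4 to 6 it was higher by 0.29 and 0.31 in waking, and by 0.09 and 0.17 after sleep deprivation. Neither state overlapped with sleep in either set.

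The beta subunit genes did not pass in any comparison of states either. Arnt ran from 8.91 to 9.95 in bound sleep, 9.05 to 9.76 in waking and 9.09 to 10.10 after sleep deprivation, with differences from sleep of -0.07 ± 0.20 and 0.11 ± 0.20. Over its 5 probe sets these ran from -0.325 to 0.11 and from -0.158 to 0.203, with none called. In the unbound fraction Arnt was at 8.21 and 8.54 in sleep and at 9.02 and 9.06 in waking (0.36 ± 0.26, adjusted p = 0.145). Arnt2, the beta subunit gene expressed mainly in nervous tissue, had differences of -0.05 ± 0.52 and 0.02 ± 0.52, and its SE was the largest of the 9 genes. Over its 3 probe sets the differences ran from -0.194 to -0.032 and from -0.107 to 0.006, with none called. The bound arrays of Arnt2 formed 2 levels within each state, which followed the animal sets and are described below.

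Egln2, the prolyl hydroxylase gene with a single probe set here, was the only 1 of the 8 genes other than Hif3a past the threshold after sleep deprivation against sleep, beside 14.3% of all genes, so that 1 of 8 is near the background. Its bound values ran from 10.14 over a median of 10.63 to 10.77 in sleep, from 10.74 over 10.88 to 10.95 in waking, and from 10.71 over 10.94 to 11.15 after sleep deprivation. All 6 sleep-deprived arrays lay above the sleep mean, and the groups overlapped in the highest sleep and the lowest sleep-deprived array. Egln2 was 1.19-fold higher after sleep deprivation (log2 0.25 ± 0.11, adjusted p = 0.0306) and 1.14-fold in waking (0.19 ± 0.11, adjusted p = 0.107). Without sleep replicate 5, its lowest array, the difference after sleep deprivation was 0.16 (adjusted p = 0.0615), and the call was lost in 10 of 29 alternatives, among them without sleep deprivation replicate 1, 3, 5 or 6. The animal sets gave 0.25 and 0.23, and sleep and sleep deprivation did not overlap in animals 1 to 3.

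Egln3, the hydroxylase gene that is itself a HIF target, had its highest bound mean after sleep deprivation, 8.44 ± 0.36 against 7.90 ± 0.55 in sleep (SD, n = 6 each), and did not pass the test (0.43 ± 0.23, adjusted p = 0.134). In animals 1 to 3 sleep and sleep deprivation did not overlap (0.68), in animals 4 to 6 they did (0.16), and the second probe set was at -0.07. Egln1, the main HIF hydroxylase gene, was at 10.73 to 11.02 in bound sleep, 10.80 to 11.15 in waking and 10.56 to 11.25 after sleep deprivation. It differed from sleep by 0.08 ± 0.11 and -0.17 ± 0.11, and from waking by -0.24 ± 0.11 (adjusted p = 0.285). The second Egln1 probe set was at -0.086 and -0.082 against sleep and at 0.002 against waking, and was not called.

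Vegfa, the angiogenic ligand gene, gave different answers at its 2 probe sets. At the brighter one, 1451959_a_at, the bound values ran from 9.12 to 10.58 in sleep, 9.20 to 11.13 in waking and 9.18 to 10.92 after sleep deprivation, and neither difference passed (0.34 ± 0.40 with adjusted p = 0.605, and 0.00 ± 0.40). This probe set split by animal set, and with the set in the model its waking difference of 0.34 was called (adjusted p = 0.0316), as was that of the mean of both probe sets (0.49, adjusted p = 0.0415). At the other, 1420909_at, values ran from 7.32 to 8.31 in sleep, 8.23 to 9.27 in waking and 8.23 to 8.76 after sleep deprivation. There Vegfa was higher by 0.66 ± 0.17 in waking (adjusted p = 0.00487) and by 0.38 ± 0.17 after sleep deprivation (adjusted p = 0.0446), and the waking difference was 0.66 and 0.67 in the animal sets. Over all probe sets 15.8% and 18.4% were called in these comparisons, and here 2 of 27 were in waking and, leaving out those of Hif3a, 3 of 21 after sleep deprivation. Markers of other cell types moved with waking as given above, and their part was not tested.

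In the unbound pools Vegfa also differed by probe set. At 1451959_a_at it was at 7.87 and 8.19 in sleep, 7.59 and 8.35 in waking, and 6.80 and 6.98 after sleep deprivation, where both pools lay below all others (-1.31 ± 0.28, adjusted p = 0.0851). At 1420909_at it was at 5.82 and 5.95 in sleep and 6.45 and 6.74 after sleep deprivation (0.55 ± 0.17, adjusted p = 0.0792). The 2 probe sets thus pointed in opposite directions in the same pools, and neither passed. None of the 9 genes was called in the unbound fraction, in waking (3 at an unadjusted p under 0.05) or after sleep deprivation (2), beside 6.32% and 1.87% of all genes in limma.

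**Figure D3:**
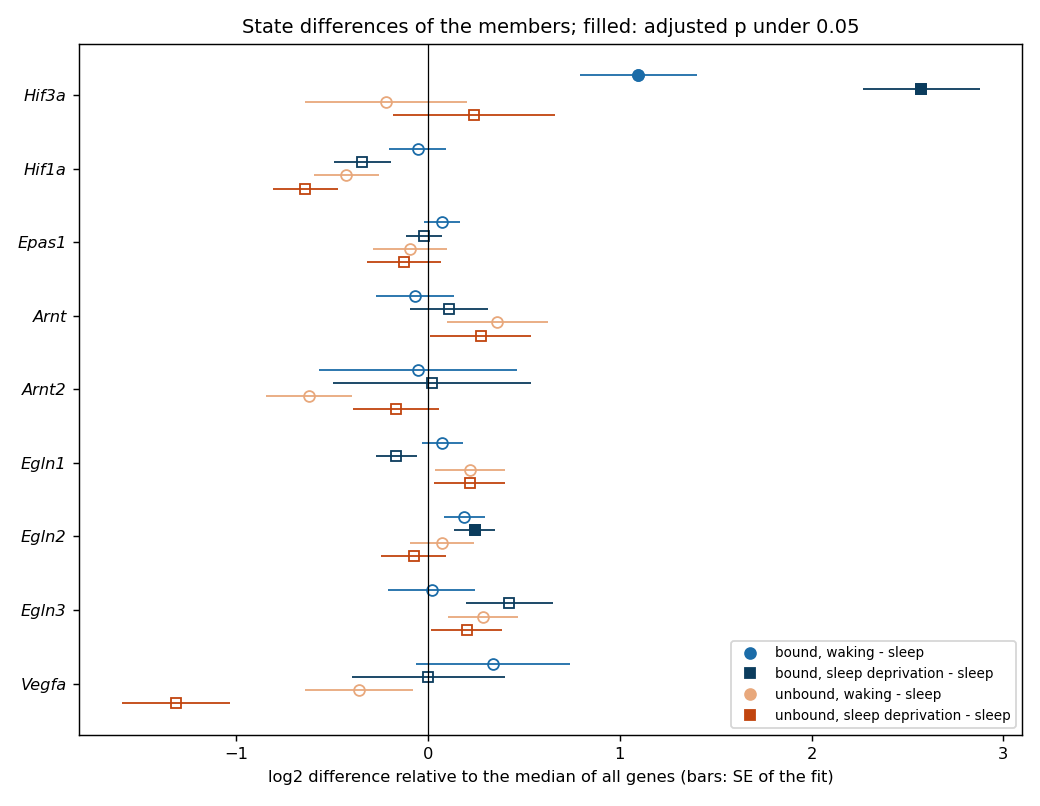
Log2 difference from sleep of the 9 genes, relative to the median of all genes, in bound and unbound arrays; circles are waking, squares sleep deprivation, bars the SE of the fit and filled symbols an adjusted p under 0.05, which for Hif3a after sleep deprivation is no independent test. The 2 bound Hif3a values, 1.10 and 2.57, lie to the right of the others, and the unbound Vegfa value of -1.31 lies farthest to the left.

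The difference between fractions in the effect of a state was called for Hif3a alone after sleep deprivation (beside 4.89% of all genes), which uses the bound arrays that prompted its choice, and for no gene in waking (0 also at an unadjusted p under 0.05 in limma, beside 5.60%). For Vegfa it was 1.31 ± 0.75 after sleep deprivation (adjusted p = 0.455).

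Of the 9 genes, 8 were called higher in the bound than in the unbound fraction, beside 42.2% of all genes, and none lower. The choice of the brightest probe set bears on this, and over all 27 probe sets 20 were higher and 2 lower, beside 35.0% and 31.1% of all probe sets. Hif3a (6.06-fold, log2 2.60 ± 0.25), Epas1 (4.88-fold, 2.29 ± 0.08, adjusted p = 4.43e-17) and Vegfa (4.79-fold, 2.26 ± 0.31, adjusted p = 4.8e-07) had the largest enrichment, and their bound and unbound arrays did not overlap. The Hif3a value includes the sleep-deprived bound arrays that prompted its choice, so it and its rank are a description. In sleep the bound and unbound means were 7.21 and 5.57 for Hif3a, 12.11 and 9.66 for Epas1, and 9.87 and 8.03 for Vegfa. After sleep deprivation those of Hif3a were 9.89 and 6.00. All probe sets of these 3 genes were called higher, from 1.10 to 2.76 for Hif3a, 2.41 and 3.76 for Epas1, and 2.39 and 2.02 for Vegfa. The corresponding difference of Aldh1l1 was 3.72 ± 0.11.

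The remaining genes had smaller differences between fractions. Arnt was higher by 0.60 ± 0.16 (adjusted p = 0.000322), with 4 of 5 probe sets called, and Egln2 by 0.50 ± 0.08 (adjusted p = 5.41e-07). Hif1a was higher by 0.60 ± 0.11 at its brightest probe set, and 2 others were called lower, 1416035_at (-0.67) and 1431981_at (-0.76). The latter was dim, with group means of 2.25 to 3.33, so that its difference is uncertain. For Hif1a the mean of the probe sets turned the sign (-0.24, adjusted p = 0.285). Egln1 was higher by 0.08 ± 0.09 relative to all genes (adjusted p = 0.0178), which became -0.03 when dim genes were left out. Arnt2 (0.78 ± 0.39, adjusted p = 0.0368) lost its call in 13 of 31 alternatives, and its other probe sets were at -0.04 and -0.06. Egln3 did not pass (0.20 ± 0.17, adjusted p = 0.0743), though its second probe set did (0.62 ± 0.13, adjusted p = 0.000158). With state and animal set as a random replicate block it was called (adjusted p = 0.0406). In Arnt2 the bound mean of animals 1 to 3 was 11.29 ± 0.13, whereas animals 4 to 6 were at 9.55 ± 0.19 (SD, n = 9 each), beside 9.48 ± 0.26 in the unbound pools (SD, n = 6).

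The animal sets split several of the genes within each state. This comparison was added after the data had been seen, and the labels say of the sets only that their supernatants were pooled. In Arnt2 animals 4 to 6 were 3.37-fold below animals 1 to 3 (log2 -1.75 ± 0.08, adjusted p = 5.24e-11), and in Vegfa 2.48-fold (-1.31 ± 0.11, adjusted p = 3.65e-08). Neither pair of sets overlapped. Taking the sets out reduced the standard deviation within a state from 0.97 to 0.17 for Arnt2 and from 0.75 to 0.24 for Vegfa, but only from 0.56 to 0.52 for Hif3a, while the median over all genes went from 0.32 to 0.24. Of the 9 genes, 3 were called higher in animals 4 to 6 (Epas1, Arnt and Egln3) and 4 lower (Hif3a, Hif1a, Arnt2 and Vegfa), beside 22.9% and 21.0% of all genes. The calls of Hif3a and Egln3 were lost in 15 and 11 of 24 alternatives, and with the mean of probe sets the sign turned for Hif1a (0.33) and Epas1 (-0.53).

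Probe sets of a gene often differed between the sets. Of 8 genes here with at least 2 probe sets, Hif1a, Epas1 and Arnt had probe sets called in opposite directions, beside 14.1% of 9010 such genes on the array. Epas1 was 0.15 ± 0.06 higher in animals 4 to 6 at 1435436_at and 1.26 lower at 1449888_at (-1.26 ± 0.06, adjusted p = 5.42e-11). Arnt2 was lower at 1420669_at (-1.77) and 1434028_at (-0.79) and not called at 1420670_at (0.08), and Vegfa was lower at 1451959_a_at (-1.33) and not called at 1420909_at (0.21). For Hif3a 4 of 6 probe sets were called lower, from -2.07 to -1.32, beside 17.4% of all probe sets. Between the fractions only Hif1a had opposite calls, beside 15.9% of such genes, and between bound states none of the 8 had, beside 1.3% in waking and 1.4% after sleep deprivation against sleep.

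**Figure D4:**
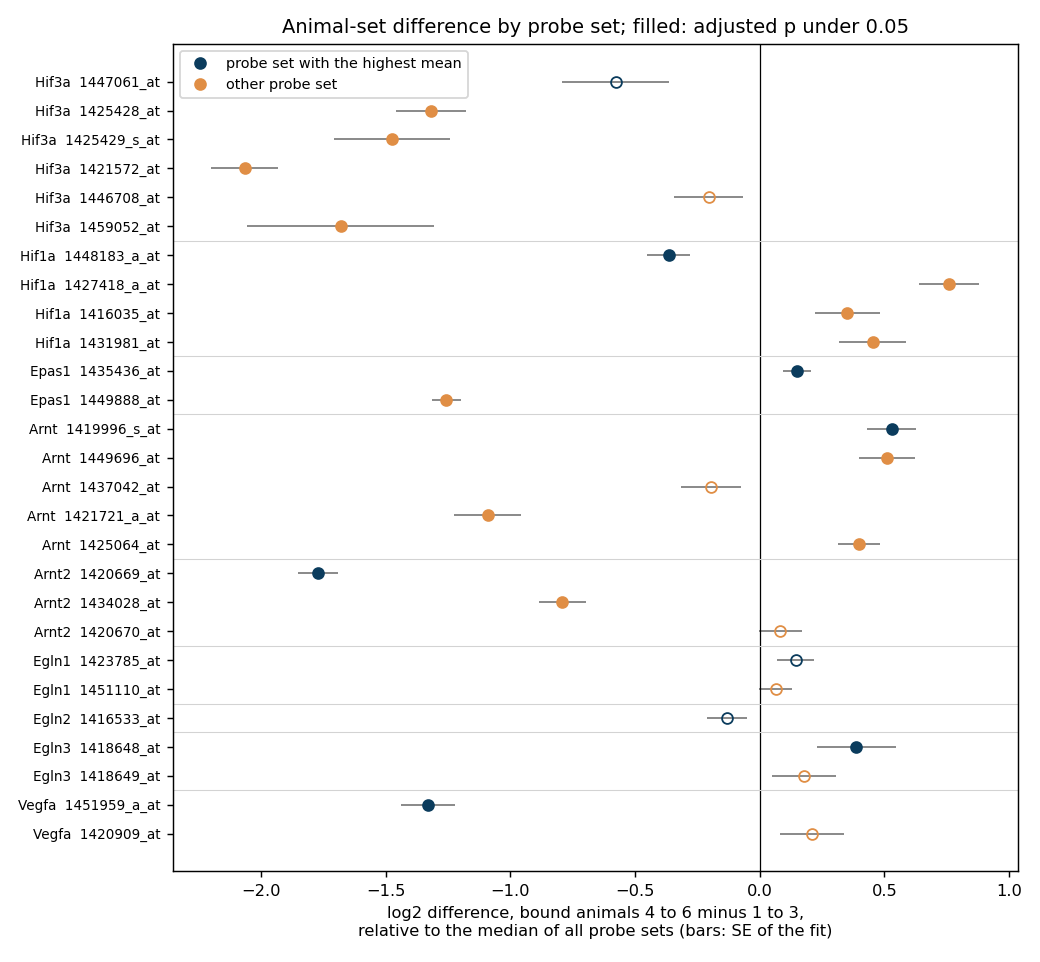
Log2 difference between bound arrays of animals 4 to 6 and of animals 1 to 3 for each of the 27 probe sets, relative to the median of all probe sets; bars are the SE of the fit and filled symbols have an adjusted p under 0.05. Probe sets of 1 gene lie on both sides of 0, as for Epas1 at 0.15 and -1.26.

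Ordered by mean, the 3 bound groups of Hif3a, sleep deprivation, waking and sleep, each stood above the next group by more than the larger of the 2 SDs, and the unbound states lay within theirs. In Hif1a, Epas1, Arnt, Arnt2 and Vegfa the 3 bound groups also came first, with gaps between them smaller than the larger SD. The 3 bound groups of Egln2 came first too. There waking stood above sleep by 0.28, beyond the larger SD of 0.22, and sleep deprivation above waking by 0.08, within 0.15. Bound and unbound groups were interleaved in Egln1 and Egln3, where unbound waking came second.

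Around these genes, the genes of HIF hydroxylation and turnover, of coactivators, of related factors and of HIF targets were examined. These and the following lists were drawn from textbook knowledge with earlier results of these arrays known. None of 14 tested genes of hydroxylation and turnover passed in bound waking or after sleep deprivation against sleep, beside 11.2% and 14.3% of all genes in limma (1 and 0 at an unadjusted p under 0.05), and 0 of 14 was not shown to differ from these shares. The list medians were -0.14 and -0.08 beside 0 for all genes by construction. Among 10 coactivators and competitors 1 passed in each comparison, near the same shares: the acetyltransferase gene Kat5 in waking (0.35 ± 0.11, adjusted p = 0.00978) and the coactivator gene Ncoa1 after sleep deprivation (0.22 ± 0.10, adjusted p = 0.0369). The call of Ncoa1 was lost in 13 of 29 alternatives, with 0.01 for the mean of its probe sets (adjusted p = 0.519), and that of Kat5 in 4 of 29, with 0.20 for the mean (adjusted p = 0.201). Of 11 other genes of the bHLH-PAS family, to which HIF subunits belong, Npas2, a clock factor, was higher in waking (0.55 ± 0.17, adjusted p = 0.0218) and after sleep deprivation (0.97 ± 0.17, adjusted p = 0.000361). After sleep deprivation Arntl2 (0.51 ± 0.13) and Sim2 (0.48 ± 0.10) also rose, and in waking Npas3 fell by 0.48 on the log2 scale. Npas4, an activity-induced gene, was called higher in waking (0.44 ± 0.16), but the call was lost in 19 of 28 alternatives, among them without any 1 of 14 of the 18 arrays. The waking call of Npas2 was lost in 9 of 29, among them without sleep replicate 2 or waking replicate 4 or 5. Arntl2, Sim2 and Npas4 were themselves dim, so that the alternative without dim genes could not be run for them.

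Most of the 36 tested HIF target genes did not pass in the bound fraction. In waking 3 were higher and 1 lower than in sleep, with a list median of 0.06. The vasodilator peptide gene Adm rose by 1.45 ± 0.37 (adjusted p = 0.0102), the glycolytic regulator gene Pfkfb3 by 0.61 ± 0.19 and the mTOR inhibitor gene Ddit4 by 0.22 ± 0.09, while the lactate transporter gene Slc16a3 fell by 0.70 on the log2 scale. The call of Ddit4 was lost in 16 of 29 alternatives, among them without any 1 of 11 of the 18 arrays, that of Pfkfb3 in 7 of 29, among them without sleep replicate 2, and that of Slc16a3 in 5 of 28, among them without sleep replicate 1 or waking replicate 4 or 5. After sleep deprivation 4 were higher and none lower, with a median of -0.06. Adm rose by 1.60 ± 0.37 (adjusted p = 0.00393), the histone demethylase gene Kdm3a by 0.97 ± 0.19 (adjusted p = 0.000826), the endothelin gene Edn1 by 0.70 ± 0.11 (adjusted p = 0.000103) and Ddit4 by 0.21 ± 0.09, whose call was lost in 9 of 29, among them without sleep replicate 2 or 3 or sleep deprivation replicate 3 or 6. Slc16a3 and Edn1 were themselves dim, so that the alternative without dim genes could not be run for them. The shares of targets called, 4 of 36 in each comparison, stood beside 11.2% and 14.3% of all genes, so the number of targets called was near the background.

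Kdm3a and Edn1 were also higher after sleep deprivation than in waking, by 0.84 ± 0.19 (adjusted p = 0.00912) and 0.44 ± 0.11 (adjusted p = 0.0165). For Edn1 the sleep deprivation difference was 1.48 ± 0.23 larger in the bound than in the unbound fraction (adjusted p = 0.000646). This exceeds the bound rise of Edn1 from sleep given above, so that part of it was a relative fall of this dim gene in the unbound pools. For Bhlhe40, a target that encodes a transcriptional repressor, the sleep deprivation difference was smaller by 0.95 in the bound fraction (-0.95 ± 0.22, adjusted p = 0.00849), a call lost without the second unbound pool of sleep or of sleep deprivation. The waking difference between fractions was called for both genes as well, higher for Edn1 and lower for Bhlhe40. The bound waking rise of Edn1 itself was not called (0.259, adjusted p = 0.054). Adm passed in unbound waking too (0.48 ± 0.17, adjusted p = 0.0481), as did Ak4, Insig2 and, from other lists, the factor-inhibiting hydroxylase gene Hif1an (0.99 ± 0.19), Clock and the VEGF receptor gene Flt1 (1.33 ± 0.19). Each of these unbound calls was lost without any 1 of the 6 unbound arrays, and no gene on the array passed in that comparison once the unbound arrays were centred on their medians.

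**Figure D5:**
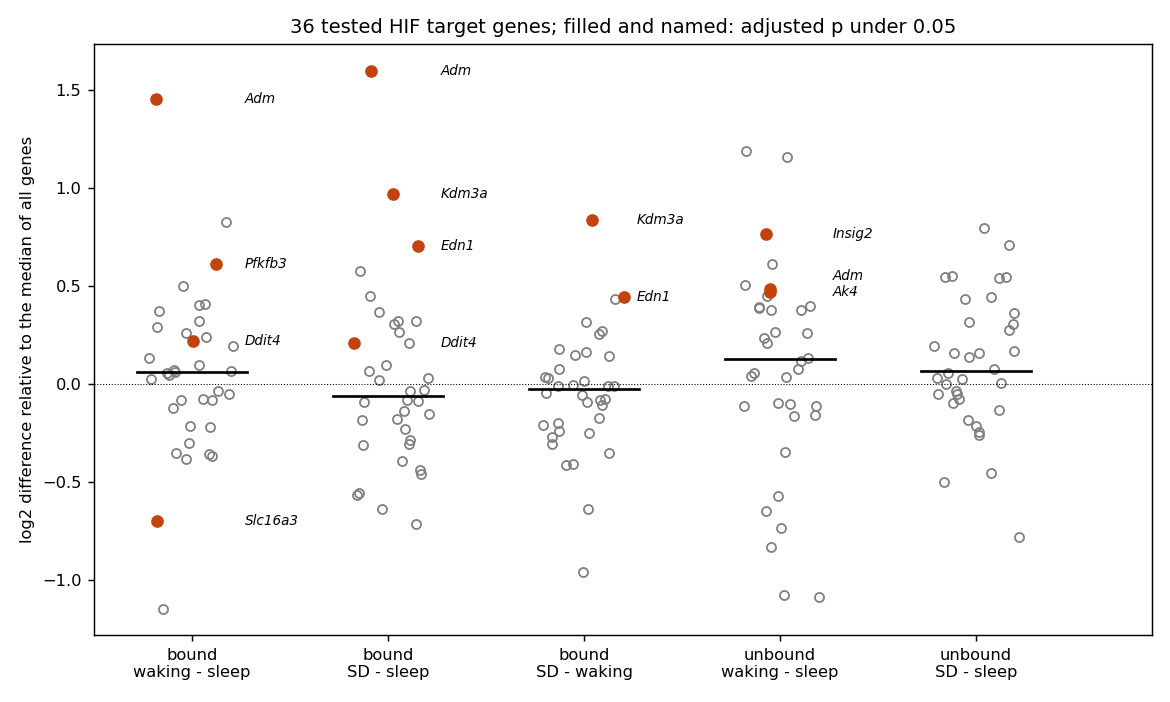
Log2 difference relative to the median of all genes for 36 tested HIF target genes (circles) in 5 comparisons of states; SD is sleep deprivation, lines are list medians, and filled, named circles have an adjusted p under 0.05. Adm lies highest in both bound comparisons with sleep, at 1.45 and 1.60, and the list medians lie near 0.

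Of the 9 other VEGF ligand and receptor genes none passed in the bound fraction against sleep, and Vegfd was lower after sleep deprivation than in waking (-1.57 ± 0.40, adjusted p = 0.0243), a call lost in 5 of 28 alternatives, among them without waking replicate 5 or sleep deprivation replicate 1. Vegfd was itself dim, so that the alternative without dim genes could not be run for it. Between fractions, ligand genes were among the largest differences of the list, with Vegfb higher by 3.00 ± 0.49 and Pgf by 1.84 ± 0.15 in the bound fraction. Of the turnover genes 6 were higher and 5 lower there, with Limd1, a scaffold for hydroxylases, at 3.14 ± 0.18, Vhl at 1.29 ± 0.13 and Hif1an at -1.22 ± 0.23. Of the target genes 16 were higher and 6 lower, beside 42.2% and 27.2% of all genes. Hmox1 (2.66 ± 0.35), Cox4i2 (2.20 ± 0.47), Fam162a (1.79 ± 0.06) and P4ha1 (1.54 ± 0.31) were the largest increases. Slc2a3, the glucose transporter gene of neurons, was lower by 2.66 (-2.66 ± 0.22), and Ndrg1, high in oligodendrocytes, by 2.05 (-2.05 ± 0.19).

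As a description, the genes whose values followed those of Hif3a most closely over the 18 bound arrays were Serpinb9c (Pearson r = 0.925), Foxl2 (0.915), Lrrc8c (0.913), Hrh2 (0.912), Ccr1 (0.909) and Arhgap31 (0.907). These arrays share states and animal sets, and within state and set the same correlations were 0.23 to 0.71. Serpinb9c (bound state means 3.70 to 4.56), Foxl2 (3.85 to 4.69), Hrh2 (4.55 to 5.28) and Ccr1 (2.14 to 3.23) were dim, so that their likeness is uncertain. The medians of the bound arrays over all probe sets were 5.653 to 5.879. Of the other 8 genes here, Egln2 was closest to Hif3a (0.571, and -0.432 within state and set). Arnt2 was followed most closely by Fastk (0.988) and Wbp2 (0.987), and Vegfa by Hivep3 (0.974) and Rpl27a (0.964). Arnt2 and Vegfa had an r of 0.904 with each other, which was -0.127 within state and set. The closest genes were Cry1 (0.892) and Vbp1 (0.887) for Epas1, Krt5 (0.865) and Neurog1 (0.856) for Hif1a, and Usp27x (0.932) and Psmc2 (0.911) for Arnt. They were Gngt1 (0.834) and Gabrp (0.789) for Egln1, Havcr1 (0.896) and Rhbdf2 (0.885) for Egln2, and Ddx52 (0.842) and Usp19 (0.837) for Egln3. Gabrp (bound state means 3.95 to 4.21) and Havcr1 (4.21 to 4.91) were dim too.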

How the data were processed

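RNA of 18 bound samples (1 animal each) and 6 unbound pools was hybridised to Affymetrix mouse arrays. The authors deposited log2 values per probe set after RMA, per the submitters' processing notes; version and the arrays normalized together are not given in the sources used here. Of 45101 probe sets, 64 were controls, 34945 had 1 gene symbol in the array annotation, 932 several and 9160 none. For the fits by gene the last 2 kinds and the controls were left out, and each of 18193 genes was read from its probe set with the highest mean. No value was missing and no array was left out.

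State comparisons were fitted on the 18 bound or 6 unbound arrays, and fractions on all 24, in limma 3.58.1 (R 4.3.3; lmFit and eBayes) with Benjamini-Hochberg adjustment over all genes. Probe sets were also tested singly, adjusted over all 45037 that were not controls, including those with several symbols or none. Named were the 9 genes with all probe sets, genes of the pathway lists past the threshold (at most the 4 largest each way per list and comparison), the 6 genes most correlated with Hif3a and 2 with each other gene, and Aldh1l1. Members and lists were chosen with earlier results of these data known.

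The labels call the bound arrays biological replicates; the number of arrays limits precision. Same-numbered bound arrays correlated at 0.268 to 0.53 (18 pairs) but at -0.287 to 0.127 once the animal set was removed, and the block on the number was run as an alternative; unbound pools gave 0.001 to 0.029. The reported fits have no block. The fitting was tested on simulated data. Promoter sequences are from RefSeq (GRCm38.p6). Figures used matplotlib 3.10.9. Alternatives are listed in the closing section.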

Additional observations from a re-analysis of the deposited data

Results flagged for a closer look

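In the bound fraction 27 groups of 6 arrays were examined for an array far from the others, of which chance marks about 1 in 20. Egln2 in sleep had its lowest array, replicate 5, at a gap of 0.729 of the group's range, above the critical value of 0.625. Egln1 after sleep deprivation had its highest array at a gap of 0.676. For Hif3a the sleep deprivation difference was larger by 2.33 ± 0.61 in the bound than in the unbound fraction, by the test of the difference over 24 arrays in limma (adjusted p = 0.0343); the same bound arrays had already shown Hif3a to be high after sleep deprivation.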

How the results depend on the processing

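Each result was recomputed with the mean of a gene's probe sets, without dim genes, with repeated quantile normalization, with arrays centred on their medians, with an intensity trend, with array weights, with the spread of all 24 arrays and without each array in turn, and for bound arrays with the replicate number as block or in 1 animal set only. The animal set as a block, single probe sets and the comparison of sets were chosen after seeing the data. The bound Hif3a difference between sleep deprivation and sleep, a description with no test, ranged from 1.71 to 2.77 over 29 alternatives. The number of the 9 genes past the threshold in bound waking, 1 as reported, was 0 without dim genes, 0 in animals 1 to 3 only, 0 in animals 4 to 6 only, and 2 with the set as a block, which added Vegfa; with the mean of probe sets it stayed 1, but Vegfa (0.494, adjusted p = 0.0415) took the place of Hif3a (adjusted p = 0.145). After sleep deprivation against sleep it was 2 with Hif3a counted and 1 without dim genes, 1 after quantile normalization, 1 after centring and 1 in animals 4 to 6 only, and 1 to 3 with an array left out. Against waking it was 1 with Hif3a counted, 0 with the mean of probe sets (Hif3a 0.92) and 0 in animals 4 to 6 only. In unbound waking it was 0 as reported and 1 with the mean of probe sets (Egln3) and 1 with the trend (Egln1). For the sleep deprivation difference between fractions it was 1 as reported, 0 with the mean of probe sets, 0 without dim genes and 0 to 1 with an array left out (lost without bound sleep replicate 3 or 6, bound sleep deprivation replicate 2, unbound sleep replicate 2 or either unbound sleep deprivation pool).

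With the mean of probe sets the sign turned for Hif1a (-0.243) and Flt1 (-0.43) between fractions, for Npas3 in the waking difference between fractions (0.056), and for Hif1a (0.33) and Epas1 (-0.525) between animal sets; without dim genes it turned for Egln1 between fractions (-0.028). The cause was not tested. The replicate block on the number changed no call of the 9 genes in the bound fraction, while the genes called over the array went from 2039 to 3064 in waking, 2597 to 3881 after sleep deprivation and 1244 to 1913 between these. With the pool as replicate block no unbound gene was called (1149 and 341 without it), and the unbound pools share only a number. Of the whole array, 142 of 11615 genes were called in bound waking without dim genes (2039 as reported), 334 after sleep deprivation (2597) and 76 between them (1244); with the animal set as a block they were 3385, 4102 and 2164. For the differences between fractions in waking and sleep deprivation, 1018 and 890 genes as reported became 37 and 22 without dim genes and 1822 and 1546 with array weights. With the trend 2935 and 1259 unbound genes were called. In the unbound fraction no gene was called in waking after quantile normalization or centring. Of the genes called, 80.9% were higher in bound waking and 85.9% after sleep deprivation, but 54.0% and 55.8% after quantile normalization; between fractions 60.8% were higher, and 39.7% after centring.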
